A study of Homo sapiens with 8 samples.

Results

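The oligoadenylate synthetase (OAS) family was followed in 2 prostate cancer cell lines that were given a plasmid for a circular RNA (circRNA) or a control plasmid. The members were the rows named OAS1, OAS2, OAS3 and OASL in the deposited count tables, 4 of 36779 genes listed, and each of them was among the 17877 genes tested. PC3 and DU145 are established human prostate cancer lines. In each line, 1 library came from cells transfected with a circ0003553 overexpression plasmid, 1 from cells with a circ0004592 overexpression plasmid, and 2 from cells with a negative control plasmid (NC), so there were 8 libraries in all. Sample titles place circ0003553 and 1 NC of each line in an RCAN3 arm, and circ0004592 and the other NC in an STK3 arm. Every group was transfected with a plasmid, and untransfected cells were not analysed here. With 1 library per circRNA and line, there is no replicate of any circRNA effect. The p-values below rest on the spread between the 2 NC libraries of each line. The fit draws the spread of each gene towards a trend over all tested genes. Nothing in the labels says that the NC libraries came from separate cultures.

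OAS enzymes bind double-stranded RNA and join ATP into short chains with 2′-5′ bonds, known as 2-5A. These chains act as a second messenger that leads to the cutting of viral and cellular RNA, which stops protein synthesis. OAS1, OAS2 and OAS3 carry 1 catalytic unit with 0, 1 or more inactive copies of it in front, while OASL has lost the enzyme activity, carries a ubiquitin-like tail and is known to help the RNA sensor RIG-I. All 4 genes are classical targets of type I interferon, which reaches them through the transcription factor complex ISGF3, which holds STAT2 and IRF9.

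OAS1, OAS3 and OAS2 lie side by side, in that order and on the plus strand, on chromosome 12 of the human genome (build hg38). OAS1 spans chr12:112906777-112933222, OAS3 spans chr12:112938352-112973249 and OAS2 spans chr12:112978395-113011723. The gaps between neighbours are 5129 and 5145 bases. OASL spans chr12:121019111-121039242 on the minus strand, 8007387 bases away. All 4 are protein-coding in GENCODE v29, whose spans were the same as those in the tables.

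Promoter windows from 250 bases before to 50 bases after the RefSeq gene start (GRCh38.p14) were at hand for OAS1 and OAS3. They are shown because both genes rose together and ISGF3 and its relatives bind repeats of GAAA. The motifs searched on both strands were GAAANNGAAA and GAAANGAAA, and their matches, which may overlap, are in capitals. OAS1 is chr12:112906712-112907011, plus strand, and OAS3 is chr12:112938224-112938523, plus strand; both RefSeq starts lie downstream of the start given in the tables.
OAS1: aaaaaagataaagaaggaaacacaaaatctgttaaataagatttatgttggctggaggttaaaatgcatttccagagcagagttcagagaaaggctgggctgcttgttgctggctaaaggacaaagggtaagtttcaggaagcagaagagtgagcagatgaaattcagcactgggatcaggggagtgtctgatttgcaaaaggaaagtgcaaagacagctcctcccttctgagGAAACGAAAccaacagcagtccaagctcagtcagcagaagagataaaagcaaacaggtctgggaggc
OAS3: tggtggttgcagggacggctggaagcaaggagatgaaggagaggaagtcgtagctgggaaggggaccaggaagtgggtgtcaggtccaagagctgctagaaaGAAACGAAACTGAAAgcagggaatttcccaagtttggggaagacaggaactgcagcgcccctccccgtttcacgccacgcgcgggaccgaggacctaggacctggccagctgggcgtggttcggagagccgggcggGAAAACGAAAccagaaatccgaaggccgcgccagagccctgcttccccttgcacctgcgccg

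OAS1 held 1 match, GAAACGAAA, from base -17 to base -9 relative to its start. OAS3 held 3, namely GAAACGAAA from -148 to -140, GAAACTGAAA from -143 to -134, which overlaps it, and GAAAACGAAA from -12 to -3. Either motif occurred in a promoter window of 7.83% of 27305 genes with one and of 7.16% of the tested genes with one. Among 78 other genes at least 16-fold higher in PC3 with each circRNA, a group chosen on the same libraries, 46 had a window and 32 of these (69.6%) held either motif. A match describes the letters of a window and does not show that a factor binds there.

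Total counts ran between 33444940 and 49926342 per library. Of the counts from 1 to 20, 64.9% to 66.1% were even, so the 2 mates of a read pair were mostly counted separately, and read pairs (the count over 2) were used for the intervals below. A count of 0 allows up to 3 read pairs, or 6 counts, which is 0.118 to 0.184 CPM (counts per 1000000 of the effective library size) depending on the library. Intervals and this floor cover counting error only. The epithelial markers KRT8, KRT18, EPCAM and CDH1 summed to 538 to 604 CPM in PC3 and 2918 to 3839 CPM in DU145. Of these, CDH1 was at only 0.726 to 1.17 CPM in PC3, against 41.3 to 64.8 CPM in DU145. Leukocyte markers summed to at most 0.393 CPM in PC3 and 1.06 CPM in DU145, with PTPRC at or under the floor in both lines. Fibroblast markers summed to 21.9 to 27.3 CPM in PC3, with COL1A2 and PDGFRB at or under the floor, and to 1.93 to 2.91 CPM in DU145, with COL1A2 there. Androgen-responsive luminal markers summed to 16.2 to 20.9 CPM in PC3, with KLK3 at or under the floor, and to at most 0.118 CPM in DU145.

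RCAN3 and STK3, the genes that the arms are named for, were read first as a check on the plasmids. RCAN3 was at 44.0 CPM in PC3 with circ0003553, against 33.2 and 29.5 CPM in the PC3 NC libraries, and at 37.1 CPM in DU145 with circ0003553, against 20.9 and 18.3 CPM in the DU145 NC libraries. STK3 was at 19.3 CPM in PC3 with circ0004592, against 7.70 and 9.12 CPM in NC, and at 34.1 CPM in DU145 with circ0004592, against 28.8 and 26.1 CPM in NC. By edgeR's quasi-likelihood test with Benjamini-Hochberg adjustment, 3 of these 4 differences passed, and STK3 in DU145 did not (adjusted p = 0.055). Of all tested genes, 28.8% and 25.7% were called in PC3 and 10.9% and 10.4% in DU145, with circ0003553 and circ0004592 in that order. RCAN3 was also called in PC3 with circ0004592, where it was lower (log2 change -0.42, edgeR adjusted p = 0.0032). That is close in size to its rise of 0.49 with circ0003553. Gene counts do not separate circular from linear transcripts.

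In PC3, all 4 OAS genes were far higher with either circRNA than with NC. OASL had 570.0 CPM with circ0003553 and 539 CPM with circ0004592, against 1.43 and 1.73 CPM in NC. OAS1, the shortest member with enzyme activity, had 547 and 536 CPM with the circRNAs, against 5.51 and 4.80 CPM in NC. OAS2, with a second catalytic-type unit, had 304 and 293 CPM, against 3.40 and 4.88 CPM in NC. No circRNA library came near a control library in any member. OAS3, the member with the most such units and the highest affinity for long double-stranded RNA, had 924 and 898 CPM with the circRNAs, against 23.0 and 22.4 CPM in NC. Together the 4 genes took 0.231% and 0.226% of all counts in the circRNA libraries, against 0.00334% and 0.00342% in NC.

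**Figure D1:**
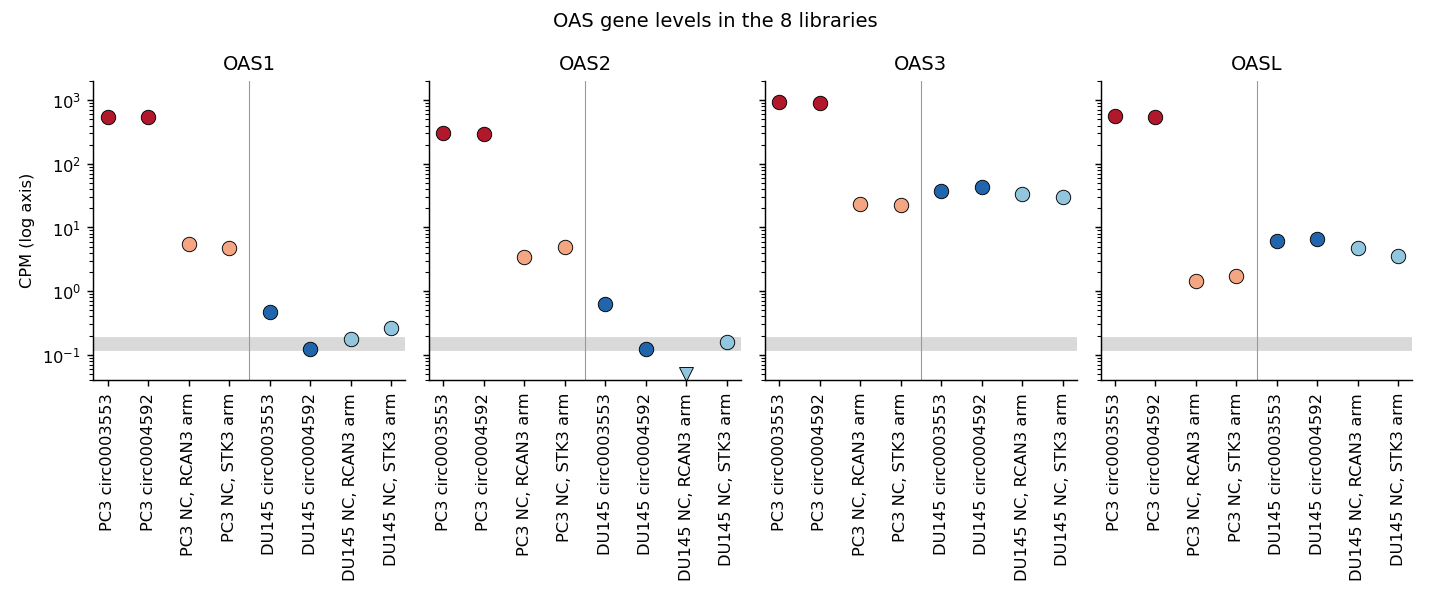
CPM (log axis) of OAS1, OAS2, OAS3 and OASL in each of the 8 libraries, 1 point per library, with PC3 left of the vertical line and DU145 right of it. The grey band is the range of the 3-read-pair floor and the triangle marks a count of 0; the PC3 circRNA libraries lie between 293 and 924 CPM in every panel, and in DU145 OAS1 and OAS2 lie at or near the band.

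Set against the NC of its own line and arm, OASL was 398-fold higher with circ0003553 (95% Clopper-Pearson interval 270 to 612, on read pairs) and 312-fold higher with circ0004592 (220 to 459). OAS1 was 99.2-fold (81.3 to 122) and 112-fold (90.4 to 140) higher. OAS2 was 89.5-fold (69.5 to 117) and 60.1-fold (48.7 to 75.2) higher, and these moved to 62.4-fold and 86.3-fold against the NC of the other arm, since the PC3 NC libraries held 121 and 175 OAS2 counts. OAS3, which started from the highest control level, was 40.2-fold (36.4 to 44.4) and 40.1-fold (36.3 to 44.4) higher. The fit over all genes, which uses both NC libraries, called all 4 members higher with each circRNA, where it called 28.8% of tested genes with circ0003553 and 25.7% with circ0004592 in either direction (14.3% and 12.3% higher). Higher by at least 4-fold were 1.36% of tested genes with each circRNA, and each OAS gene was among them. With circ0003553 the log2 changes (± SE) were 8.49 ± 0.10 for OASL, 6.73 ± 0.08 for OAS1, 6.20 ± 0.11 for OAS2 and 5.35 ± 0.06 for OAS3, with edgeR adjusted p of 1.9e-23 or less. With circ0004592 they were 8.41 ± 0.10, 6.70 ± 0.08, 6.15 ± 0.11 and 5.31 ± 0.06 in the same gene order (edgeR adjusted p of 2.4e-23 or less). The medians over all tested genes were -0.03 for both circRNAs. In a bulk library, more responding cells and more RNA per cell cannot be told apart.

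**Figure D2:**
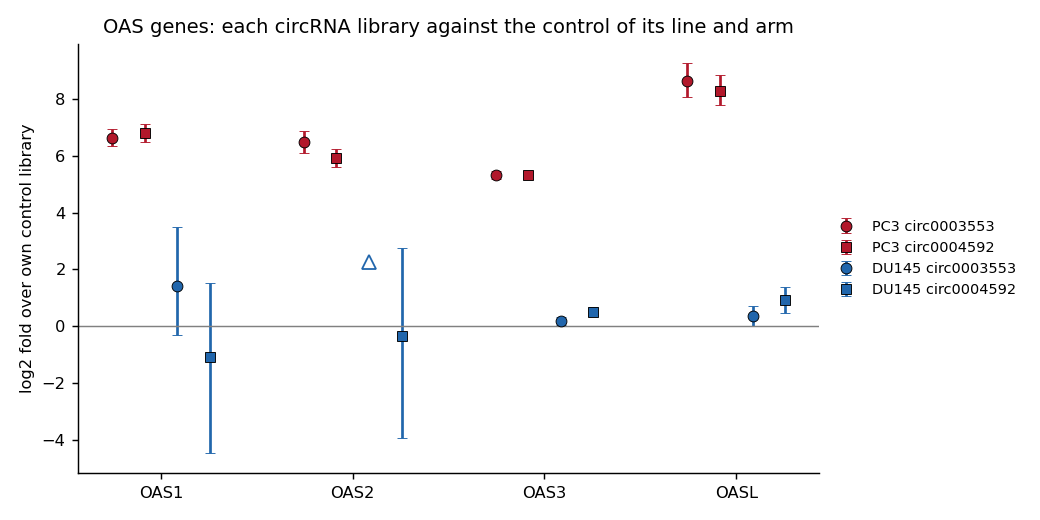
Log2 fold of each circRNA library over the NC library of its own line and arm, by OAS gene, with 95% Clopper-Pearson intervals on read pairs. The open triangle is the lower bound for OAS2 in DU145 with circ0003553, whose control count is 0; PC3 points lie above 5 for every gene and the DU145 points of OAS3 and OASL lie between 0 and 1.

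Per length, the order of the genes differed between circRNA and control libraries of PC3. RPKM, the deposited count divided by the exonic length and the library total, was 159 and 153 for OASL with the circRNAs, 110 and 108 for OAS3, 109 and 108 for OAS1, and 47.8 and 46.6 for OAS2. OASL was thus the highest member and ranked 283 and 300 among all listed genes of those libraries. OAS3 and OAS1 stood level with each other. In the PC3 NC libraries OAS3 led with 2.77 ± 0.03 RPKM (SD, n = 2), followed by OAS1 with 1.05 ± 0.10, OAS2 with 0.666 ± 0.173 and OASL with 0.453 ± 0.063. OASL held 37.4% and 36.7% of the summed RPKM of the family with the circRNAs, against 8.40% and 9.92% in NC. The share of OAS3 was 25.8% and 26.1%, against 57.4% and 54.8% in NC. OAS1 made up 25.5% and 26.0%, against 23.0% and 19.6%, and OAS2 made up 11.2% in both, against 11.2% and 15.7%.

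**Figure D3:**
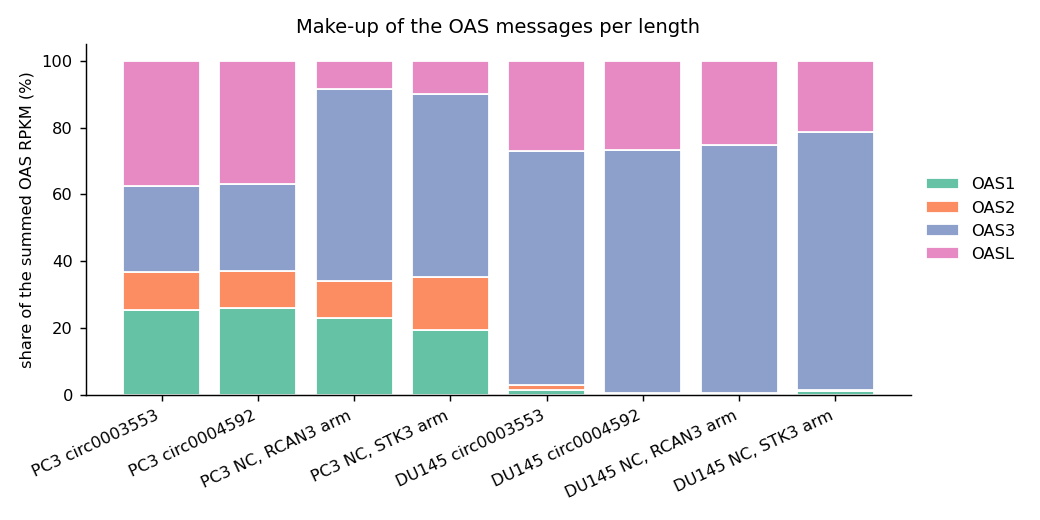
Share (%) of each gene in the summed RPKM of OAS1, OAS2, OAS3 and OASL, 1 stacked bar per library. OASL makes up 37.4% and 36.7% of the bars of PC3 with the circRNAs against 8.40% and 9.92% in PC3 NC, and OAS3 makes up over 70% of every DU145 bar.

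The circRNAs gave nearly equal OAS levels in PC3. The ratio of circ0003553 to circ0004592 was 1.06 for OASL (counting interval 1.03 to 1.09), 1.03 for OAS3 (1.01 to 1.05), 1.04 for OAS2 (0.997 to 1.08) and 1.02 for OAS1 (0.990 to 1.05). These intervals bound the differences within 1.09-fold as far as counting error goes. None of the 4 passed edgeR (adjusted p between 0.84 and 0.96), a comparison of 1 library with 1 in which 0.112% of tested genes passed. A p above the threshold does not show that the circRNAs act alike.

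In DU145 the family behaved differently. OAS3 had 37.7 CPM with circ0003553 and 42.6 CPM with circ0004592, against 33.2 and 30.00 CPM in NC. OASL had 6.19 and 6.69 CPM, against 4.84 and 3.56 CPM in NC. In both genes the circRNA libraries lay above both NC libraries, by much smaller steps than in PC3. Over the own control, OAS3 was 1.14-fold (1.03 to 1.25) and 1.42-fold (1.27 to 1.59) higher, and OASL was at 1.28-fold (0.996 to 1.65) with circ0003553 and 1.88-fold (1.38 to 2.58) with circ0004592.

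OAS1 and OAS2 were close to the limit of counting in DU145. OAS1 had 24 counts with circ0003553 and 4 with circ0004592, against 8 and 10 in NC, or 0.470 and 0.123 CPM against 0.176 and 0.262 CPM. OAS2 had 32 and 4 counts, against 0 and 6 in NC. The circ0003553 library held the highest count of both genes, and the circ0004592 library lay among or below the controls for OAS1. Set against the floor of its own control, OAS2 was at least 4.75-fold higher with circ0003553, or 3.43-fold once the counting error of both libraries is included, and 3.99-fold (1.14 to 21.4) above the NC of the other arm. OAS1 was at 2.67-fold of its own control, with an interval of 0.810 to 11.4.

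By edgeR, 3 of the 4 members passed with circ0003553 in DU145, where 10.9% of tested genes were called (4.62% higher), and 2 of 4 with circ0004592, where 10.4% were (5.93% higher). OAS3 had log2 changes of 0.25 ± 0.07 (edgeR adjusted p = 0.019) and 0.43 ± 0.07 (0.0004), and OASL had 0.54 ± 0.13 (0.0098) and 0.66 ± 0.15 (0.0052). OAS2 passed with circ0003553 at 3.07 ± 0.66 (edgeR adjusted p = 0.0033), a value that rests on 6 control counts in all and was 1.97 without the NC of the RCAN3 arm and 7.59 without that of the STK3 arm, and had 0.75 ± 1.15 with circ0004592. OAS1 did not pass with circ0003553 (1.12 ± 0.42, edgeR adjusted p = 0.088) or circ0004592 (-0.79 ± 0.69, 0.55). None of these DU145 calls was kept by limma on log2 RPKM, and DESeq2 kept only OAS3 for each circRNA. With both circRNA libraries of the line as 1 group, only OASL kept its call. With the arm as a replicate block, OAS3 lost its call for circ0003553 (0.21, edgeR adjusted p = 0.055). Without the NC of the STK3 arm, OASL lost its call for both circRNAs and OAS3 its call for circ0003553; without the NC of the RCAN3 arm, OAS2 lost its call.

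Low counts in the DU145 circRNA libraries were also seen in other genes that PC3 expresses and DU145 controls hardly do. There were 17 other genes with at most 6 counts in each DU145 NC library and at least 2000 in each PC3 circRNA library. All 17 were chosen after their values were seen. Some were not higher in PC3 with the circRNAs, such as HOXB13 (6339 and 6216 counts, against 9063 and 9877 in NC). Others, namely RSAD2, CMPK2, GBP5 and RP1-71H24.1, were far higher there, with RSAD2 at 25525 and 24960 counts, against 28 and 52 in NC. In the circ0003553 arm the DU145 count of the 17 genes was 0.0178% to 0.515% of the PC3 count, with a median of 0.108%. In the other arm it was 0% to 0.257%, with a median of 0.028%. OAS1 stood at 0.133% and 0.0224% and OAS2 at 0.318% and 0.0410%, within these ranges. OAS3 stood at 6.31% and 4.64% and OASL at 1.68% and 1.21%, above them. By count, OAS1 (24) and OAS2 (32) in the circ0003553 library lay above all 17 genes, whose highest count there was 16. In the circ0004592 library both had 4, and the highest of the 17 genes had 13. OAS1, with 8 and 10 counts in the DU145 NC libraries, would not have met the limit of 6. In the circ0003553 library of DU145, 13 of these 17 genes had a count, scaled for library size, above that of its own control. In the circ0004592 library, 9 of the 17 were above that same NC of the RCAN3 arm. The genes were chosen for low counts in the controls alone, which favours a higher count elsewhere, so no conclusion is drawn from these numbers. Whether such low counts come from the DU145 cells or from reads of another library was not tested.

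Between circ0003553 and circ0004592 in DU145, OAS1 differed by a log2 of 1.91 ± 0.62 (edgeR adjusted p = 0.042) and OAS2 by 2.32 ± 0.78 (0.049), on 24 against 4 and 32 against 4 counts, where 13.9% of tested genes passed. Neither was called by DESeq2 or limma, nor without either DU145 NC library. OAS3 (-0.18 ± 0.08) and OASL (-0.11 ± 0.15) did not pass, and the counting interval of the OASL ratio was 0.720 to 1.19.

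With NC alone, the lines differed in the levels of all 4 members. OAS1 was at 5.51 and 4.80 CPM in PC3 against 0.176 and 0.262 CPM in DU145, and OAS2 at 3.40 and 4.88 CPM against 0 and 0.157 CPM. OAS3 was at 23.0 and 22.4 CPM in PC3 against 33.2 and 30.00 CPM in DU145, and OASL at 1.43 and 1.73 CPM against 4.84 and 3.56 CPM. The PC3 NC libraries thus had more OAS1 and OAS2 and less OAS3 and OASL than the DU145 NC libraries. All 4 passed (edgeR adjusted p of 2.0e-07 or less), as did 82.6% of tested genes (41.6% higher and 41.1% lower in PC3), with log2 changes of 4.56 ± 0.21, 5.79 ± 0.37, -0.48 ± 0.06 and -1.42 ± 0.16 for PC3 over DU145. The OAS2 value rests on 0 and 6 DU145 NC counts: it kept its call but was 4.68 without the DU145 NC of the RCAN3 arm, 10.30 without that of the STK3 arm, where the remaining control is at 0, and 0.71 by limma with a pseudocount of 1. In DU145 NC, OAS3 made up 74.0% and 76.9% of the summed RPKM and OASL 25.3% and 21.4%, so that OAS1 and OAS2 together were a trace.

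The effect of each circRNA on the family was larger in PC3 than in DU145. The difference in log2 change, PC3 minus DU145, was 7.95 ± 0.19 and 7.75 ± 0.20 for OASL, 5.61 ± 0.54 and 7.49 ± 0.66 for OAS1, 5.09 ± 0.10 and 4.88 ± 0.10 for OAS3, and 3.13 ± 1.04 and 5.40 ± 1.30 for OAS2, with circ0003553 and circ0004592 in that order. All 4 passed for each circRNA (edgeR adjusted p of 0.032 or less), where 22.6% and 20.3% of tested genes did (12.1% and 9.79% higher in PC3). OAS3 carries this difference on ample counts in both lines. OASL had 51 and 62 counts in PC3 NC and 220 and 136 in DU145 NC. For OAS2 the DU145 term rests on few counts, and without the DU145 NC of the STK3 arm its difference was -1.39 (edgeR adjusted p = 0.68) for circ0003553 and 0.88 (0.88) for circ0004592. DESeq2 did not call it either (DESeq2 adjusted p = 0.47 and 0.15), nor did edgeR with both circRNA libraries of a line as 1 group (edgeR adjusted p = 0.086).

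Other genes that act on 2-5A or beside it moved far less than the OAS genes. Of 3 such partners, AKAP7 rose in PC3 with each circRNA, ABCE1 rose only a little with circ0003553 (0.18 ± 0.06, edgeR adjusted p = 0.039; not by DESeq2 or limma), and PDE12 did not pass, where 28.8% and 25.7% of all tested genes were called. AKAP7, whose 2H phosphoesterase domain can degrade 2-5A, had 4.45 and 6.13 CPM, against 2.14 and 1.78 CPM in NC. Its log2 changes were 1.18 ± 0.23 (edgeR adjusted p = 0.00027) and 1.64 ± 0.22 (2.2e-06). PDE12, a phosphodiesterase that also cleaves 2-5A, had 16.7 and 16.4 CPM, against 17.6 and 16.3 CPM in NC, so its values lay within those of the controls. ABCE1, a ribosome recycling factor, had 90.3 and 79.6 CPM, against 82.5 and 77.1 CPM. In DU145, ABCE1 passed with circ0003553 (0.19 ± 0.06, not by DESeq2 or limma) and none of the 3 with circ0004592, where 10.9% and 10.4% of all tested genes were called.

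Most tested genes on a list of double-stranded RNA sensors, adaptors and related genes rose with the OAS genes in PC3. Of 11 on the list, 10 were tested, and 7 were higher and 1 lower with each circRNA, where 14.3% and 12.3% of tested genes were higher. Leaving out DHX58, which had almost no counts in PC3, the median log2 change of the tested genes of the list was that of EIF2AK2. This median was 2.54 with circ0003553 and 2.42 with circ0004592. IFIH1, which encodes the sensor MDA5, had 464 and 452 CPM, against 10.6 and 9.40 CPM in NC. DDX58, which encodes RIG-I, had 369.5 and 338 CPM, against 10.3 and 10.4 CPM. EIF2AK2, the kinase PKR that blocks translation when it binds double-stranded RNA, had 395 and 364 CPM, against 68.5 and 67.4 CPM. Their log2 changes, 5.53, 5.15 and 2.54 with circ0003553, were within or below the range of the OAS genes. TLR3, ADAR, ZC3HAV1 and the adaptor TICAM1 were the other 4 that rose, TICAM1 by only 0.33 ± 0.11 and 0.48 ± 0.11 (not by DESeq2 or limma). MAVS, the adaptor of RIG-I and MDA5, was lower at 50.6 and 54.0 CPM, against 64.7 and 64.0 CPM in NC (-0.35 ± 0.08 and -0.25 ± 0.08; not called by limma with a pseudocount of 0.1). DHX58, a RIG-I relative, had 0 and 2 counts in the PC3 circRNA libraries and 0 in both PC3 NC libraries, while DU145 libraries held 71 to 137.

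In DU145, 1 of the 10 tested genes on that list passed with each circRNA. That is a share near the 10.9% and 10.4% of all tested genes called there. The gene was ZC3HAV1, an antiviral zinc finger protein, at 0.36 ± 0.06 (edgeR adjusted p = 0.00062) and 0.30 ± 0.07 (0.0047). ZC3HAV1 was not called there by limma, and with circ0004592 not without the NC of the RCAN3 arm. IFIH1 had 9.53 and 8.69 CPM in DU145 with the circRNAs, against 8.12 and 8.65 CPM in NC. The difference between the lines was itself called for IFIH1 (5.35 ± 0.13 and 5.44 ± 0.13), DDX58, EIF2AK2, TLR3, ADAR and ZC3HAV1 with each circRNA.

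STAT2 and IRF9, which encode parts of ISGF3, rose in PC3. STAT2 had 218 and 219.6 CPM, against 34.1 and 35.9 CPM in NC, and IRF9 had 170.1 and 174 CPM, against 27.9 and 29.03 CPM. In each the circRNA libraries lay close together and far above NC. Among 9 genes of the interferon receptor, ISGF3 and its feedback, 8 were tested and 6 were higher with each circRNA, where 14.3% and 12.3% of all tested genes were, with a median log2 change of 0.40 and 0.36. USP18, a brake on the receptor, rose by 4.59 ± 0.09 and 4.58 ± 0.09, whereas the receptor chain IFNAR2 rose by 0.33 ± 0.10 with each (not by DESeq2 or limma) and IFNAR1 was at -0.35 ± 0.08 with circ0003553 (called, but not by DESeq2) and -0.17 ± 0.08 with circ0004592 (not called). In DU145 IRF9 alone of the 8 passed with each circRNA, a share near the 10.9% and 10.4% of all tested genes called there. It had 15.5 and 17.0 CPM, against 12.3 and 10.9 CPM in NC. Its log2 changes were 0.41 ± 0.09 (edgeR adjusted p = 0.0048) and 0.54 ± 0.10 (0.00086), neither called by limma.

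Of 5 interferon regulatory factors, 3 were higher with circ0003553 and 4 with circ0004592 in PC3, against 14.3% and 12.3% of all tested genes. IRF7, a driver of interferon genes, had 44.2 and 44.5 CPM, against 5.54 and 4.15 CPM in NC. IRF1 had 107 and 98.8 CPM, against 27.3 and 26.3 CPM. In DU145 IRF1 was lower with circ0003553, at 25.8 CPM, against 31.9 and 32.8 CPM in NC (-0.33 ± 0.08, edgeR adjusted p = 0.0076, not called by DESeq2 or limma). No other of the 5 was called in DU145, where 10.9% and 10.4% of all tested genes were.

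The interferon ligands themselves were scarcely seen. Of 8 on the list, 6 were listed in the tables and none was abundant enough to be tested. IFNB1, the gene of interferon beta, had 44 counts in PC3 with circ0003553 and 30 with circ0004592, against 0 in both PC3 NC libraries and 0 in all 4 DU145 libraries. That is at least 7.89-fold and 5.39-fold above the floor of the own control, or 5.90-fold and 3.86-fold once the counting error of both libraries is included. The lambda genes IFNL1, IFNL2 and IFNL3 had at most 6 counts in any library, and IFNA1 had at most 1. IFNE had at most 12, with no split by plasmid in PC3 (7 and 12 counts, against 0 and 10 in NC). In DU145, IFNE had 12 counts with circ0003553 and 2 with circ0004592, against 0 and 2 in NC.

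**Figure D4:**
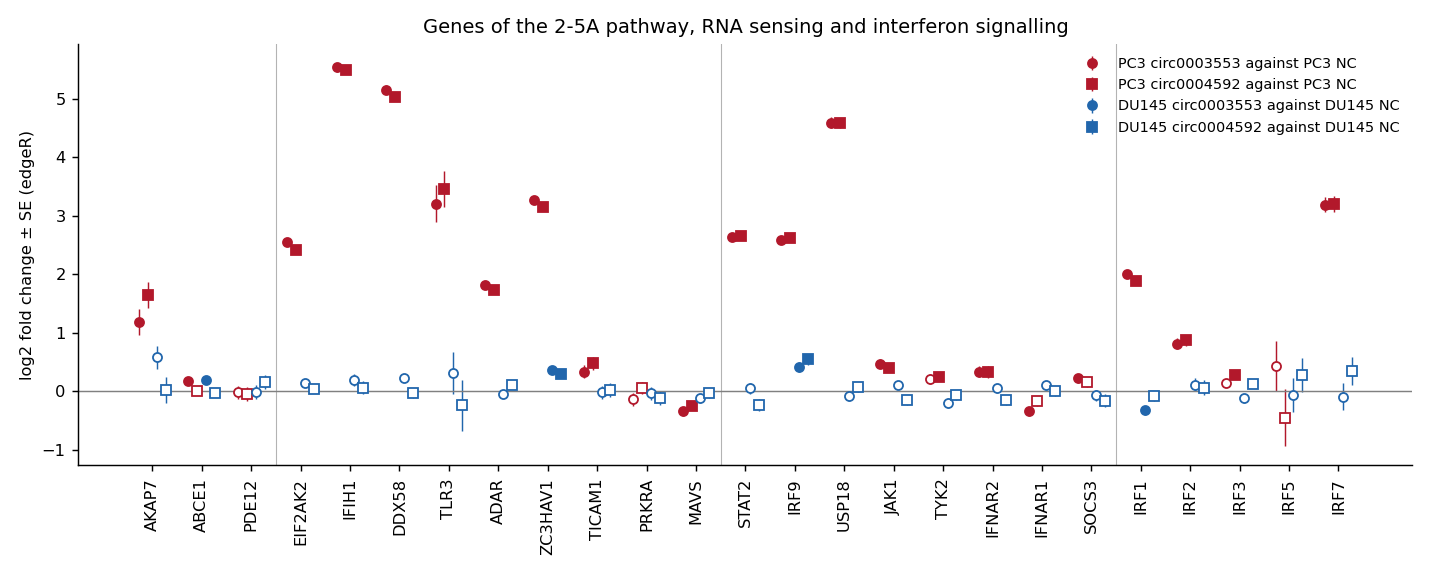
Log2 fold change ± SE (edgeR) of tested genes of the 2-5A pathway, RNA sensing, interferon signalling and the interferon regulatory factors, 4 blocks from left to right, in the 4 comparisons of a circRNA with NC. Filled points passed an adjusted p of 0.05; IFIH1 and DDX58 lie above 5 in PC3, and the DU145 points lie near 0. DHX58, near 0 counts in PC3, is left out.

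OAS relatives outside the family changed little. Of the genes that share the nucleotidyltransferase fold or bind double-stranded RNA, 4 were tested. MB21D1, the DNA sensor cGAS whose fold resembles that of OAS enzymes, had 5.99 and 6.49 CPM in PC3, against 4.05 and 3.74 CPM in NC (0.62 ± 0.15 and 0.74 ± 0.15; edgeR adjusted p = 0.0029 and 0.00054). STRBP was lower in PC3 (-0.33 ± 0.09 and -0.40 ± 0.09), ZFR passed at 0.17 ± 0.06 with circ0003553, and ILF2 had 0.06 ± 0.06 with circ0003553 and did not pass. In DU145 none passed but ZFR with circ0003553. Of all tested genes, 28.8% and 25.7% were called in PC3 and 10.9% and 10.4% in DU145.

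Most genes around the family changed far less than its members. Within 200 kb of a member, 22 other genes were listed and 13 tested. In PC3, 5 were higher and 1 lower with circ0003553, and 5 higher and 2 lower with circ0004592, where 28.8% and 25.7% of all tested genes were called, with median log2 changes of 0.19 and 0.14. The exception in size was RP1-71H24.1, on the strand opposite to OAS1, OAS3 and OAS2 and overlapping all 3. It had 3502 and 3576 counts in PC3 with the circRNAs, against 40 and 40 in NC, and at most 6 in any DU145 library. Its log2 changes were 6.56 ± 0.13 and 6.58 ± 0.13 (edgeR adjusted p = 2.2e-22 and 2.0e-22), within the range of the OAS genes. Of its 575 exonic bases, 92 are shared with OAS1 and 0 with the other members. The kit is stranded per the labels, but the strand setting of the counting is not given in the sources used here, so how the reads of those bases were assigned cannot be told. The other neighbours called in PC3 changed by less than 1 on the log2 scale. RITA1 (-0.44 and -0.60), DDX54 (0.33 and 0.19), CFAP73 (0.32 and 0.28) and, near OASL, P2RX4 (0.37 and 0.41) passed with each circRNA, but each lost its call for at least 1 circRNA under DESeq2, limma or the pooled circRNA libraries.

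**Figure D5:**
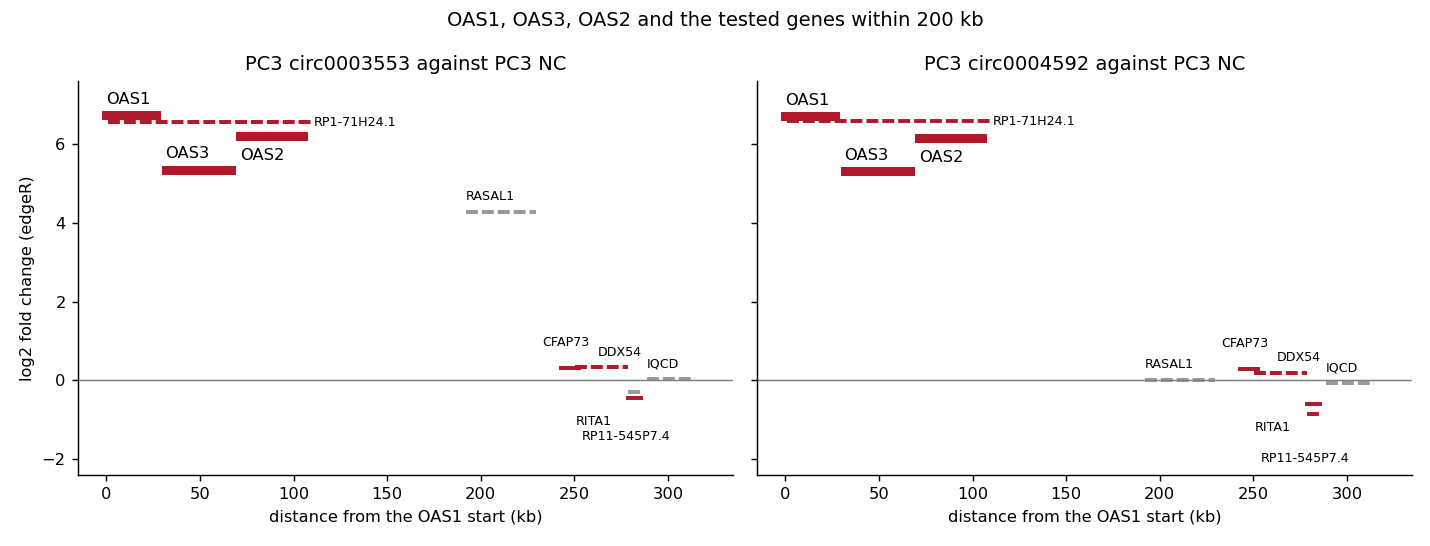
Log2 fold change (edgeR) of OAS1, OAS3, OAS2 and the tested genes within 200 kb of them in PC3, against distance from the OAS1 start, with 1 panel per circRNA. Thick bars are OAS genes, dashed bars lie on the minus strand and grey bars did not pass; RP1-71H24.1 lies at 6.56 and 6.58 across the cluster, and RASAL1, grey, has at most 2 counts in any PC3 library.

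The members followed different companions across the libraries. The Pearson correlation of log2 CPM over 8 libraries was 0.995 between OAS3 and OASL and 0.987 between OAS1 and OAS2, and from 0.785 to 0.862 between the pairs. These values mainly reflect 2 high PC3 libraries and the levels of the others, and the points share lines, arms and depth. Of 12297 genes with enough counts, MX1 (0.9998), AP001610.5, PLSCR1, HERC5 and SLC25A28 were most like OAS3, and SLC25A28 (0.999), SAMHD1, DDX58, APOL2 and ZC3HAV1 most like OASL. PLS3 (0.998), STAT2, RP1-71H24.1, TMEM50A and GBP5 were most like OAS1, and RBM43 (0.993), SLC9B2, RP1-71H24.1, ZNF284 and KDM5A most like OAS2. The OAS1 and OAS2 lists thus hold genes higher in PC3 NC than in DU145 NC, such as STAT2, with 34.1 and 35.9 CPM in PC3 NC against 12.8 and 13.5 CPM in DU145 NC.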

How the data were processed

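RNA-seq libraries from 8 transfected cell samples were analysed. Per the labels' protocols, RNA was depleted of ribosomal RNA and made into stranded libraries with unique molecular identifiers, read as pairs. Whether identifiers were collapsed, and the strand setting of counting, are not given in the sources used here. Per the submitters' processing notes, tools included Trimmomatic 0.36, featureCounts of Subread 1.5.1 and edgeR 3.12.1. The authors deposited raw counts per gene and RPKM values. RPKM equalled the count divided by length and total count (largest relative difference 2.31e-13). A gene in only 1 of the 2 count tables (5511 genes, at most 14 counts) was set to 0 in the other.

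The 17877 genes that reached 1 CPM in at least 2 libraries entered a quasi-likelihood fit in edgeR 4.0.16 (R 4.3.3), scaled by TMM. The fit had 6 groups of line and plasmid and 2 residual degrees of freedom, both from the NC pairs. Each single circRNA library was taken to have the same spread. The spread of each gene was drawn towards a trend over all 17877 genes, so the p-values do not rest on 2 degrees of freedom alone. P-values were adjusted by Benjamini-Hochberg across those genes, with a threshold of 0.05. The SE is the absolute log2 change over the square root of F. CPM uses the TMM-scaled total of the tested genes. Folds over the own control use 95% Clopper-Pearson intervals on read pairs. On simulated data for circ0003553 in PC3 (17877 genes), the fit recovered 100% of genes raised by 3 on the log2 scale, 95.8% lowered by 3, 94% raised by 1 and 78% lowered by 1, and called 12 of 17372 unchanged genes. The simulation gave every gene the same dispersion and the circRNA library the same spread as NC. It changed 48 to 50 genes per step, whereas 28.8% of genes were called in the data. It cannot show how the fit errs where a single circRNA library varies more than NC.

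Named genes were the 4 members, the pathway lists, the marker lists, tested neighbours within 200 kb, and for each member the 5 genes of at least 5 mean CPM with the highest correlation of log2 CPM (prior count 2). Some genes of these lists are not reported here, and counts and medians leave them out. The members and lists were chosen with earlier results of these data known. The motif, low-count and antisense comparisons were added after seeing the data. Alternatives were DESeq2 1.42.0, DESeq2 size factors in edgeR, other filters, limma 3.58.1 on log2(RPKM + 0.1) and log2(RPKM + 1), pooled circRNA libraries, an arm block, each NC left out, and other controls and scalings for folds and levels. The arm was not treated as a pair: the control difference between arms had r = -0.04 between the lines over 17877 genes.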

Additional observations from a re-analysis of the deposited data

Results flagged for a closer look

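The effect of each circRNA differed between the lines for all 4 members by edgeR's interaction test. The log2 change in PC3 minus that in DU145 was 5.61 (OAS1), 3.13 (OAS2), 5.09 (OAS3) and 7.95 (OASL) for circ0003553. For circ0004592 it was 7.49 (OAS1), 5.40 (OAS2), 4.88 (OAS3) and 7.75 (OASL). These values compare 1 circRNA library per line. Without the DU145 NC of the STK3 arm, the OAS2 value was -1.39 for circ0003553 and 0.88 for circ0004592. OAS1 and OAS2 had at most 32 counts in any DU145 library, and the part that low counts play in their values was not tested.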

How the results depend on the processing

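In PC3 all 4 OAS genes kept their call against NC and their direction under each of 12 alternatives for both circRNAs, and OAS1, OAS3 and OASL kept that of the difference between lines. DESeq2 called 2565 and 2266 genes in PC3 (circ0003553, then circ0004592, throughout), 820 and 835 in DU145, 2016 and 1807 for the difference between lines, and 42 in PC3 and 1219 in DU145 between circRNAs. Limma on log2(RPKM + 0.1) called 3305 and 2641 in PC3, 0 and 0 in DU145 (3448 and 3877 at an unadjusted p under 0.05), 1961 and 1619 for the difference between lines, and 0 in either line between circRNAs (1486 in PC3 and 4147 in DU145 unadjusted). With log2(RPKM + 1), counts were 0 in DU145 (3620 and 3999 unadjusted), 2307 and 1989 for the difference, and 0 between circRNAs (1459 and 4324 unadjusted). Both circRNA libraries as 1 group gave 180 genes in DU145 and 2165 for the difference. Between circRNAs in PC3, no filter gave 60 genes and a 5 CPM filter 11; 5 of 20 calls were higher, and 10 of 25 with DESeq2 size factors.

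Of the OAS genes in DU145, DESeq2 called 1 for each circRNA, limma 0 and the pooled libraries 1. Between circRNAs in DU145, DESeq2 and limma called 0, and no filter, the 5 CPM filter and the arm block 1 each. Leaving out each NC in turn gave 782 to 2676 and 533 to 2531 calls in DU145 (OAS genes 1 to 3 and 1 to 2), and 10 to 95 in PC3 and 1871 to 3140 in DU145 between circRNAs (OAS genes 0 to 2 in DU145). There the remaining NC was taken to vary like the other line's pair. The replicate block by arm gave 13 genes between circRNAs in PC3, with OAS1 at -0.13, OAS3 at -0.0561 and OASL at -0.16 there, none called. It ended the call of OAS3 with circ0003553 in DU145 (0.21).

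Directions turned for OAS1 in DU145 with circ0004592 (0.62, pooled), OAS2 there (-0.35 without the RCAN3 arm NC, 5.27 without the STK3 arm NC), the OAS2 difference between lines for circ0003553 (-1.39 without the STK3 arm NC, 4.23 without the RCAN3 arm NC), CFAP73 (0.0167) and DDX54 (0.0613) in DU145 with circ0003553 (pooled), and the OAS2 fold with circ0004592 in DU145 against the mean of both NC (0.64). The causes were not tested. OAS1 and OAS2 had at most 32 counts in any DU145 library, so their differences there are known only within wide counting intervals.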
